A study of Mus musculus with 14 samples.

Results

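The genes described here encode the replicative DNA helicase and the factors that place it on replication origins: Mcm2, Mcm3, Mcm4, Mcm5, Mcm6, Mcm7, Mcm10, Cdc6, Cdt1 and Cdc45. They are 10 of the 12393 genes with a probe set on the array, and were taken by gene symbol from the annotation of the array, which gives them 23 probe sets. Each gene is described by the probe set with the highest mean intensity over all arrays, and its other probe sets serve as a check. Liver RNA of mice was measured on 14 arrays of 1 colour. They form 7 groups of 2 arrays: normal liver, and regenerating liver taken 4, 8, 12, 36, 48 or 72 h after partial hepatectomy (PHx), an operation in which part of the organ is cut away and the remainder regrows. Each RNA extract pooled the livers of 4 to 6 mice. Strain, age and sex are not given in the sources used here, and no sham-operated group was analysed here, so a change against normal liver is the change with surgery and time together. It is not stated whether replicate arrays hold separate pools of mice, so the p-values reflect the spread between these arrays alone, and part or all of it may be technical. Below, early means the 4, 8 and 12 h groups and late means the 36, 48 and 72 h groups, 6 arrays each.

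In a cell that prepares to divide, the origin recognition complex, Cdc6 and Cdt1 load the ring of Mcm2 to Mcm7 onto DNA as an inactive double hexamer, a step called licensing. At the start of S phase, kinases and firing factors bring Cdc45 and the GINS complex to the ring, and Mcm10 then helps to activate it, so that the helicase can unwind DNA. Hepatocytes of the adult liver rarely divide, but after PHx most of those left re-enter the cell cycle, and the Mcm genes are classical targets of the E2F transcription factors that act at the start of S phase.

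The promoters of these genes are shown first, and a link between their letters and the size of a change was not tested. RefSeq (GRCm38.p6) windows of 250 bases before to 50 bases after the start were matched for 9 of the 10 genes. They were searched on both strands for the E2F letters TTTCCCGC, TTTGGCGC, TTTCGCGC and TTTGCCGC. These were present in 6 of the 9 genes (Mcm3, Mcm5, Mcm6, Mcm7, Cdc6 and Cdt1), and in 2.26% of all 32851 windows of that length. In Mcm3 and Cdt1 the matches lie after the start. The 180 bases directly upstream of the start are printed 5′ to 3′ on the strand of the gene for the 4 genes with a match there and for Mcm2, which has none, with the matches in capitals. Matches on opposite strands that overlap form a single longer run in Mcm5 and Mcm6. The regions are chr8:75109329-75109508 (plus strand) for Mcm5, chr1:128359706-128359885 (minus strand) for Mcm6, chr5:138171884-138172063 (minus strand, 1 of 2 windows of the gene) for Mcm7, chr11:98907971-98908150 (plus strand) for Cdc6 and chr6:88898781-88898960 (minus strand) for Mcm2.
Mcm5: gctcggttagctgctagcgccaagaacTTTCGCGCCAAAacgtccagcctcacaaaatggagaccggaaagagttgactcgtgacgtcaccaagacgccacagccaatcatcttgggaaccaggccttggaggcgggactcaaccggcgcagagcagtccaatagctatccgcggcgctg
Mcm6: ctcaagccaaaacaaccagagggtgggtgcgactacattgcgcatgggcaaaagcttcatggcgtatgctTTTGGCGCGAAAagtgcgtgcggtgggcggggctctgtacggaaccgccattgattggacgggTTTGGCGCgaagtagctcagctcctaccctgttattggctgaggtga
Mcm7: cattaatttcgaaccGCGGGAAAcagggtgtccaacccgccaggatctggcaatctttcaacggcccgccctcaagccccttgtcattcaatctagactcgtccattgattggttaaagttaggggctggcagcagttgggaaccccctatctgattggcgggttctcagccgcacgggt
Cdc6: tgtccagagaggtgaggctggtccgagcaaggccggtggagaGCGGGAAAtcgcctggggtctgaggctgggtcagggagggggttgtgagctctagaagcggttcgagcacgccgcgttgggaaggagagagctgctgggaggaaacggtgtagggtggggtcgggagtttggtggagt
Mcm2: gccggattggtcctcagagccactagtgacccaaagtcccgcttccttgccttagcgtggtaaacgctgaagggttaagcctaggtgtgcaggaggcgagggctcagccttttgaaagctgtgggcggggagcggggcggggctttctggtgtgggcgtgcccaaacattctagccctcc
In Mcm6 the capitals mark matches that begin 110, 106 and 47 bases before the start, in Mcm5 153 and 149, in Mcm7 165 and in Cdc6 138. The shorter letters CCAAT, read by the factor NF-Y, were present in the windows of 7 of the 9 genes and in 37.4% of all windows. The letters TTTGAA or TTCGAA of the cell cycle homology region were present in 3 of the 9 (Mcm2, Mcm7 and Cdc45) and in 19.2% of all windows. A match describes the letters only, and a window without one says nothing about binding of the factor.

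Values are intensities on the linear scale of the deposited table, which was scaled so that the trimmed mean of each array is 500.2 to 500.3. The median intensity of an array ranged from 127.8 to 233.1, and its background from 43.56 to 138.3, taken as the 95th percentile over the 27 bacterial controls of that array. Replicate 2 of the 8, 12, 36 and 72 h groups had a 5′ to 3′ ratio of the pyruvate carboxylase control of 0.0909 to 0.137, against 0.305 to 0.584 on the other 10 arrays. These 4 arrays are called the low-ratio arrays, and the counts of members called are given with and without them. A change is the difference between group means of log2(intensity + 57), given with its standard error (SE) from limma; such differences understate the change of dim genes. P-values are adjusted over all 13576 probe sets tested, with a threshold of 0.05. Of the 10 genes, 8 had a brightest probe set above the intensity filter of 128.8. Cdc45, with a mean of 128.6, fell just below it and Cdc6, with 28.59, far below. Both are given from the fit without the filter. In whole tissue, fewer cells that express a gene and less RNA per cell cannot be told apart.

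The 6 subunits of the helicase ring were low in normal liver and through 12 h, and all 6 were higher on each of the 6 late arrays than on each of the 8 normal and early arrays. Cdt1 did the same, which makes 7 of the 10 genes, while 2.25% of all tested probe sets had late arrays wholly above the others. On these probe sets Mcm6 had the largest rise of the 10 genes from early to late arrays, and Mcm3 and Mcm4 the smallest among the ring subunits.

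**Figure D1:**
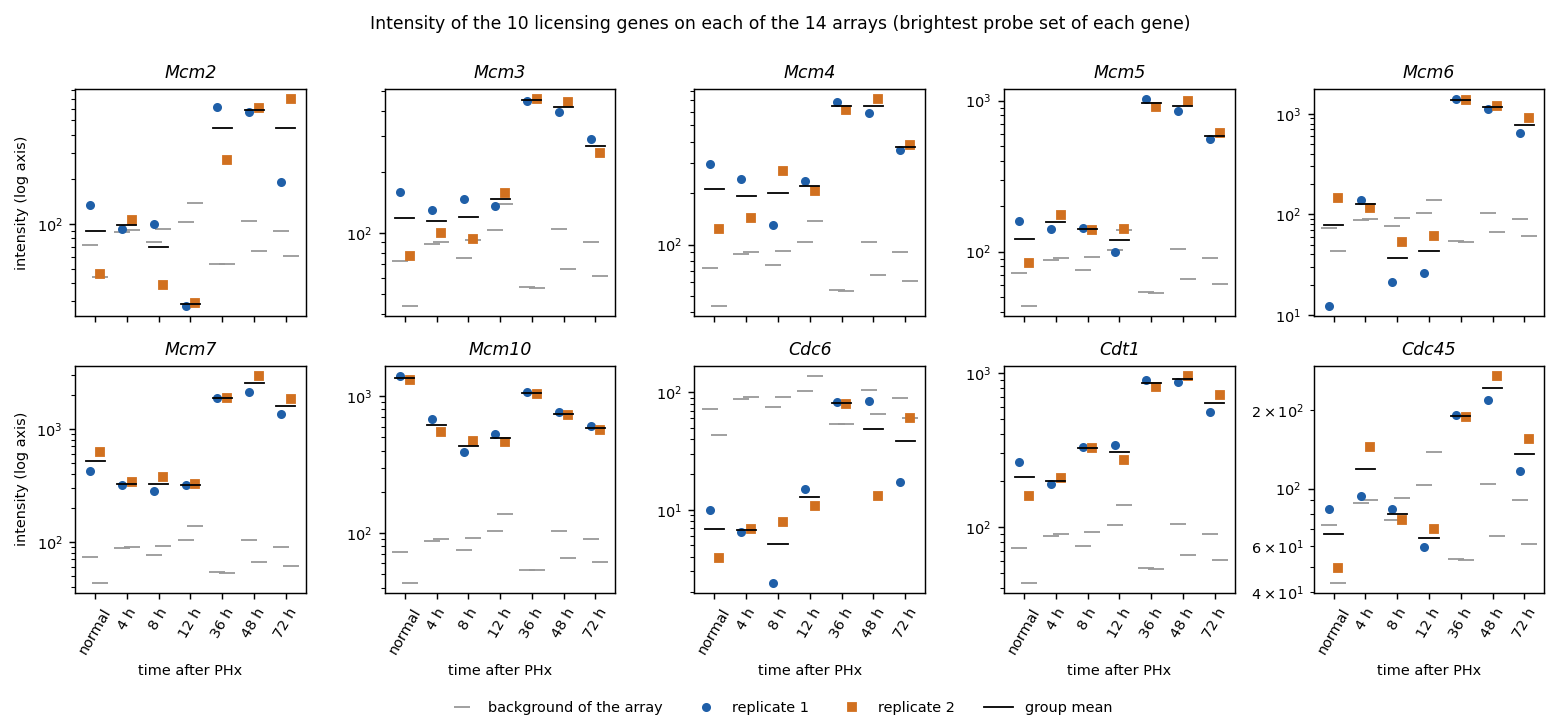
Intensity (log axis) of the brightest probe set of each of the 10 genes in normal liver and at 6 times after PHx. Points are single arrays, black bars are means of 2 arrays and grey marks are the background of each array. Mcm2 to Mcm7 and Cdt1 rise between 12 and 36 h, Mcm10 is highest in normal liver, and Cdc6 is above background only on the 36 h arrays.

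Mcm6 (1416251_at) read 12.2 and 145.5 in normal liver, 137.9 and 116.8 at 4 h, 21.1 and 52.7 at 8 h, and 26.3 and 60.5 at 12 h. It then read 1391 and 1373.2 at 36 h, 1127.9 and 1202.7 at 48 h, and 647.1 and 917 at 72 h. Only 1 of the 2 normal arrays and none of the 8 and 12 h arrays were above background, while the late arrays were close together. From 12 to 36 h Mcm6 rose at least 11.6-fold (adjusted p = 0.000554). Against normal liver the log2 change was 3.60 (SE 0.41) at 36 h, 3.37 at 48 h and 2.81 at 72 h, with adjusted p of 0.000465, 0.000625 and 0.00247. The dimmer probe set of the gene, not above background in normal or early liver, rose at least 5.96-fold from normal liver to 36 h.

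Mcm5 (1415945_at), the subunit next to Mcm2 at the gate through which the ring opens, read 159.9 and 84.3 in normal liver, 140.4 and 173.8 at 4 h, 143.8 and 139.1 at 8 h, and 99.3 and 141 at 12 h. The late values were 1018.9 and 902.4 at 36 h, 852.6 and 999.8 at 48 h, and 557 and 607.2 at 72 h. The 36 and 48 h arrays overlapped each other, and both 72 h arrays lay between them and the earlier groups. The log2 change against normal liver was 2.54 (SE 0.25, adjusted p = 0.000176) at 36 h, 2.49 at 48 h (adjusted p = 0.00012) and 1.87 at 72 h (adjusted p = 0.00137).

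Mcm7 (1438320_s_at), one of the ring's ATPase subunits, was above background on all 14 arrays. It read 421.4 and 622.5 in normal liver and between 282.8 and 372.2 on the 6 early arrays, all below both normal arrays. The differences of -0.57, -0.58 and -0.60 at 4, 8 and 12 h did not pass the test, and the other probe sets shared them only in part. At 4, 8 and 12 h 1416030_a_at was at 0, 0.39 and -0.28, and 1416031_s_at at -0.09, -0.30 and -0.08. The values of 1439269_x_at were -0.40, 0.38 and 0.37. The brightest probe set then read 1875.4 and 1873.5 at 36 h, 2139.3 and 2942.2 at 48 h, and 1355.4 and 1838.5 at 72 h. The log2 change against normal liver was 1.76 (SE 0.26, adjusted p = 0.00286) at 36 h, 2.17 at 48 h (adjusted p = 0.000519) and 1.52 at 72 h (adjusted p = 0.00724). From 12 to 36 h it rose by 2.36 (adjusted p = 0.000612). The other 3 probe sets of Mcm7 all passed the test against normal liver at 48 h (1.44 to 1.52), 1 of the 3 at 36 h and 0 of the 3 at 72 h (0.61, 0.72 and 1.21).

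Mcm4 (1416214_at) and Mcm3 (1420028_s_at) changed less. Mcm4 read 298 and 122.8 in normal liver, and between 129.6 and 270.1 on the early arrays. It reached 680.8 and 611.4 at 36 h, 590.5 and 709.2 at 48 h, and 360.1 and 382.1 at 72 h. Its 2 normal arrays were farther apart than those of any early group, and the log2 change passed the test at 36 h (1.47, SE 0.35, adjusted p = 0.0347) and 48 h (1.48, adjusted p = 0.0477) but not at 72 h (0.76, adjusted p = 0.325). Both calls were lost with the low-ratio arrays as a block (adjusted p of 0.0671 and 0.0547) and without them (0.266 and 0.148), and of 26 alternative fits 16 kept the call at 36 h and 7 that at 48 h. Mcm3 read 159.4 and 76.8 in normal liver and 92.8 to 157.3 on the early arrays. It then read 448.4 and 455.2 at 36 h, 392.4 and 440.1 at 48 h, and 289.1 and 246.8 at 72 h. Its log2 change was 1.58 (SE 0.26, adjusted p = 0.00564) at 36 h, 1.47 (adjusted p = 0.01) at 48 h and 0.93 (adjusted p = 0.0994) at 72 h, the last not past the threshold. The Mcm3 probe sets 1426653_at (0.62, 1.56 and 0.91) and 1449705_x_at (1.03, 1.48 and 0.74) were called at none of these times. Without the filter the dim 1426652_at was called at 36 h (1.25, adjusted p = 0.0231) and 48 h (1.19, adjusted p = 0.035). The other dim probe set, 1420029_at, was called at none of the late times. Its changes were 0.26, 1.08 and 0.86 at 36, 48 and 72 h (adjusted p of 0.905, 0.37 and 0.49).

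Mcm2 (1434079_s_at), a target of the kinase that fires origins, had the largest SE of the tested members. It read 134.6 and 45.9 in normal liver, 92.4 and 105.9 at 4 h, 100.3 and 38.5 at 8 h, and 27.9 and 29.3 at 12 h. The late pairs were 616.8 and 269.6 at 36 h, 569.8 and 605.6 at 48 h, and 191.7 and 693.5 at 72 h. The 36 and 72 h replicates lay far apart, in opposite order, and of the 3 late times only 48 h passed the test against normal liver (log2 change 2.20, SE 0.49, adjusted p = 0.0376, against 0.0693 at 36 h and 0.125 at 72 h). From 12 h, where neither array was above background, to 36 h it rose at least 3.42-fold (adjusted p = 0.0149). The other probe set of Mcm2 (1448777_at) had late arrays of 441.2 and 550.9, 526.9 and 451.4, and 301.6 and 390, without the wide gap. It passed the test at all 3 late times, with log2 changes of 2.11 at 36 h, 2.10 at 48 h and 1.65 at 72 h (adjusted p of 0.00276, 0.00251 and 0.0122).

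Of the loading factors, Cdt1 (1424143_a_at), which escorts the ring to the origin, rose with the ring subunits. It read 264.4 and 158.5 in normal liver, 189 and 208.9 at 4 h, 329.9 and 324.8 at 8 h, and 339 and 273.7 at 12 h. It then read 897.8 and 813.2 at 36 h, 875.7 and 957.2 at 48 h, and 561.2 and 724.6 at 72 h. The 8 and 12 h arrays were above both normal arrays, but the log2 differences of 0.55 and 0.46 did not pass the test. The log2 change against normal liver was 1.79 (SE 0.24, adjusted p = 0.00185) at 36 h, 1.89 (adjusted p = 0.000871) at 48 h and 1.40 (adjusted p = 0.00799) at 72 h. The second probe set (1424144_at) passed at 36 h (1.57, adjusted p = 0.00987) and 48 h (1.47, adjusted p = 0.0189). At 72 h it did not (0.98, adjusted p = 0.116), and its 72 h replicate 2 of 291.7 was below its 8 h replicate 2 of 298.1.

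Cdc6 (1417019_a_at), the ATPase that joins the origin recognition complex to recruit the ring, was near the limit of the array. Its 8 normal and early arrays read 2.4 to 15, and the late pairs were 83.4 and 79 at 36 h, 83.9 and 13 at 48 h, and 17.1 and 60.6 at 72 h. Both 36 h arrays were above background and no other array was. At 36 h it was at least 1.44-fold above normal liver, with an adjusted p of 0.107 without the filter, so this difference did not pass the test.

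Cdc45 (1416575_at), which joins the ring when an origin fires, read 83.8 and 49.6 in normal liver and 59.5 to 144.9 on the early arrays. It reached 191.7 and 188.5 at 36 h, 217.9 and 270.8 at 48 h, and 116.6 and 154.4 at 72 h. The 36 and 48 h arrays were above all others, and the 72 h arrays overlapped those at 4 h. Without the filter the log2 change against normal liver was 1.01 at 36 h (adjusted p = 0.0468), 1.29 at 48 h (adjusted p = 0.0175) and 0.64 at 72 h (adjusted p = 0.262).

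Mcm10, which despite its name is no ring subunit, went the other way against normal liver. Its probe set 1433408_a_at read 1407 and 1317.6 in normal liver, the highest values of the course. It read 683 and 549.7 at 4 h, 391.2 and 471.2 at 8 h, 527 and 460.5 at 12 h, 1077.2 and 1032.9 at 36 h, 767.9 and 723.2 at 48 h, and 604.7 and 562.9 at 72 h. Every array after PHx was below both normal arrays, and the 36 h arrays were above all others after PHx. The log2 change was -1.08 (SE 0.21, adjusted p = 0.0174) at 4 h, -1.54 (adjusted p = 0.000805) at 8 h and -1.37 (adjusted p = 0.00156) at 12 h. From 12 to 36 h it rose by 1.02 (adjusted p = 0.0161). Against normal liver it was then at -0.35 (adjusted p = 0.412) at 36 h, -0.82 (adjusted p = 0.066) at 48 h and -1.15 (adjusted p = 0.0105) at 72 h. The 4 h value is the least settled: leaving out either normal array or either 4 h array gave 0 members past the threshold in place of 1.

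The other Mcm10 probe set (1433407_at) did not show this course. It read 159.8 and 109.3 in normal liver and 34.7 to 216.5 on all 14 arrays, near background, and its late minus early difference was -0.02 (SE 0.26, adjusted p = 0.981 without the filter). The fall and the later rise of Mcm10 therefore rest on a single probe set. Which of the 2 probe sets reports the full transcript was not tested.

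**Figure D2:**
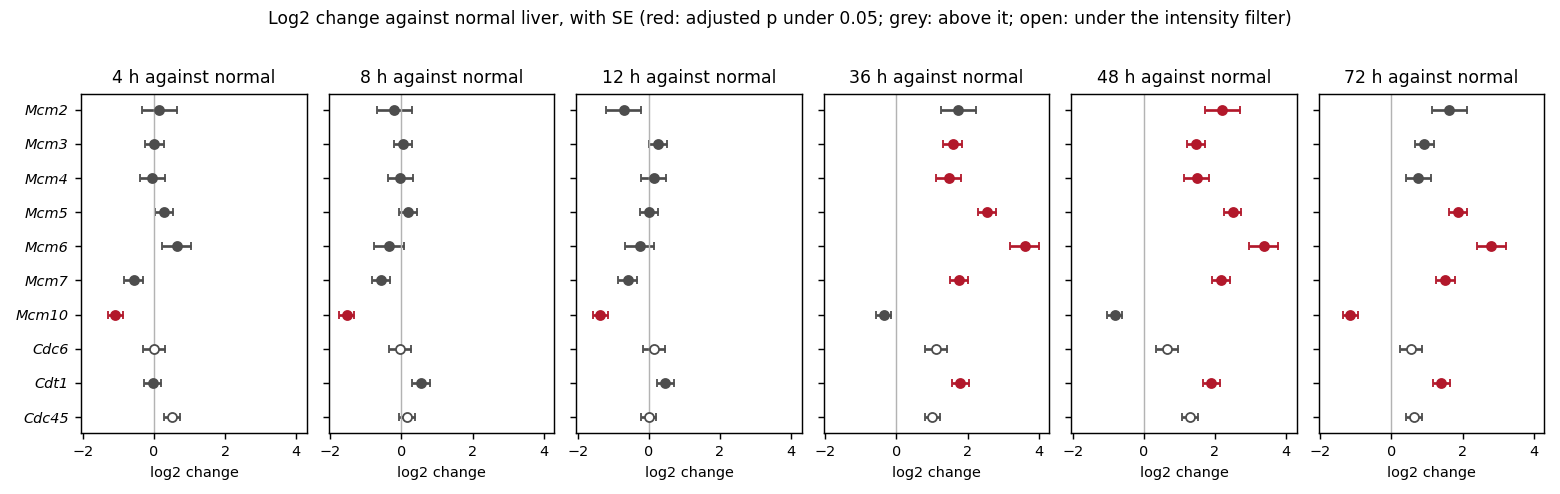
Log2 change against normal liver with SE for the 10 genes, 1 panel per time after PHx, 2 arrays against 2. Red points have an adjusted p under 0.05, grey points do not, and open points are the genes under the intensity filter, from the fit without it. Mcm10 is the only called member at 4, 8 and 12 h, and the ring subunits and Cdt1 are to the right of 0 at 36 to 72 h.

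Counted over the 8 members tested, 1 passed the test at each of 4, 8 and 12 h, and it was Mcm10, lower each time. In these comparisons 2.42%, 9.59% and 12.2% of all tested probe sets were called in either direction. At 36 h 6 members were higher than in normal liver (Mcm3, Mcm4, Mcm5, Mcm6, Mcm7 and Cdt1), beside 2.28% of all tested probe sets. At 48 h 7 were higher, with Mcm2 added, beside 1.64%. At 72 h 5 were called, Mcm5, Mcm6, Mcm7 and Cdt1 higher and Mcm10 lower, beside 2.49% in either direction. The median log2 change of the 8 members was 1.75, 2.03 and 1.46 at 36, 48 and 72 h, and that of all tested probe sets 0.07, 0.12 and 0.11. The 48 h count fell to 4 without normal replicate 2 or without either 48 h array. The 72 h count fell to 3 without normal replicate 2 and to 2 without 72 h replicate 2, and the 8 and 12 h counts were 2 without normal replicate 1. Without the low-ratio arrays, which leaves 1 array at 8, 12, 36 and 72 h, each assumed to vary like the other groups, the counts at 4, 12 and 72 h were 0, that at 8 h was 1, that at 36 h was 2 (Mcm5 and Mcm6) and that at 48 h was 5, Mcm3 (adjusted p = 0.0722) and Mcm4 (0.148) being lost. With these arrays as a block, Mcm4 alone lost its calls, at 36 and 48 h.

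Between 12 and 36 h, the step at which the ring genes changed, 7 of the 8 members rose and Mcm4 did not pass (1.34, adjusted p = 0.0506), beside 3.09% of all tested probe sets called higher. The median log2 change was 1.85 for the members and -0.05 for all tested probe sets. The count fell to 3 without 36 h replicate 1, to 4 without 36 h replicate 2 and to 0 without the low-ratio arrays, which leaves 1 array on each side.

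The late minus early comparison, with 6 arrays a side, called all 8 tested members higher, beside 9.92% of all tested probe sets. Of these members, Mcm2, Mcm3 and Mcm6 were tested only because their late arrays lifted them over the filter. The log2 changes were 3.25 (SE 0.23) for Mcm6, 2.40 (SE 0.15) for Mcm7, 2.14 (SE 0.14) for Mcm5 and 2.11 (SE 0.28) for Mcm2. They were 1.37 (SE 0.14) for Cdt1, 1.23 (SE 0.15) for Mcm3, 1.22 (SE 0.20) for Mcm4 and 0.56 (SE 0.12) for Mcm10. Adjusted p ranged from 1.1e-06 for Mcm7 to 0.00751 for Mcm10. The count was 8 with each array left out in turn, and without the low-ratio arrays Mcm10 alone lost its call (0.59, adjusted p = 0.108). The members' median was 1.74 and that of all tested probe sets 0.02. Without the filter Cdc45 (0.77, adjusted p = 0.00382) passed as well. No size or call is given for Cdc6, which was above background on 2 of the 14 arrays. The F test over the 6 times called 8 of the 8 members, beside 13.1% of all tested probe sets. Without the low-ratio arrays it called 5, and Mcm3, Mcm4 and Mcm10 were lost (adjusted p of 0.0838, 0.139 and 0.0912).

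No member passed the test between neighbouring late times. From 36 to 48 h 0 of the 8 members were called, beside 0.464% of all tested probe sets. In limma 1174 probe sets had an unadjusted p under 0.05 over this step, 1 of them the brightest of a member (Mcm10, -0.47). From 48 to 72 h 0 members were called, beside 0% of all tested probe sets, where limma gave 370 probe sets an unadjusted p under 0.05, 2 of them brightest probe sets of members (Mcm5, -0.62, and Mcm7, -0.65). All 10 genes had a lower mean at 72 h than at 48 h, and in 8 of them both 72 h arrays were below both 48 h arrays. The share of all tested probe sets with either pattern was not counted, so these counts alone show no fall particular to the members. The median difference was -0.57 over the 8 tested members and -0.01 over all tested probe sets. By mean intensity Mcm3, Mcm5, Mcm6 and Cdc6 were highest at 36 h and Mcm2, Mcm4, Mcm7, Cdt1 and Cdc45 at 48 h, with differences between these times that did not pass the test.

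Other cell cycle genes were set beside this timing. Pcna, the sliding clamp of the replication fork, changed against normal liver by 1.64 (SE 0.21), 1.55 and 1.14 at 36, 48 and 72 h, and its difference between 36 and 48 h was -0.09 (adjusted p = 0.937). The changes of Pcna at 36 and 72 h lost their calls without the low-ratio arrays (1.70 and 1.22, adjusted p of 0.0759 and 0.23). Cdk1, the kinase that drives mitosis, read 930.8 and 747.6 at 36 h, 2306 and 2855.8 at 48 h, and 1756.2 and 1656.3 at 72 h. It rose from 36 to 48 h by 1.56 (SE 0.23, adjusted p = 0.0104), a call lost without the low-ratio arrays (1.41, adjusted p = 0.422). Ccna2, cyclin A2, and Mki67, a proliferation marker, differed by 1.5 and 1.48 over the same step, with adjusted p of 0.0572 and 0.0738. Ccne1, cyclin E1 of the G1 to S transition, was higher than in normal liver at 12 h (1.17, adjusted p = 0.0344). Its normal replicate 1 read 53.7, below the background of 72.59 of that array. At 12 h 0 of the 8 tested licensing genes were called higher, beside 5.98% of all tested probe sets, too few genes to tell apart from that share. That call of Ccne1 was lost with the low-ratio arrays as a block (adjusted p = 0.0631) and without them (0.229). The differences in timing between the licensing genes and Ccne1 or Cdk1 were not themselves tested.

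**Figure D3:**
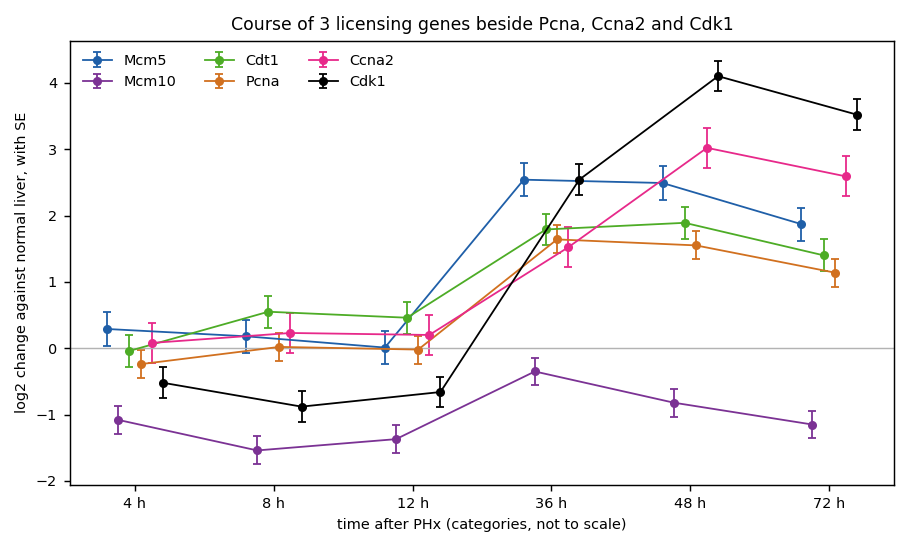
Log2 change against normal liver with SE for Mcm5, Cdt1 and Mcm10 beside Pcna, Ccna2 and Cdk1, 2 arrays against 2 at each of 6 times (categories, not to scale, points offset sideways). Mcm5, Cdt1 and Pcna differ little between 36 and 48 h, Cdk1 rises by 1.56, and Mcm10 stays below 0.

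Other genes of licensing and origin firing were taken from a list by their roles. Of its 32 genes, 27 had a probe set and 18 were tested, and 6 of the 18 were higher late than early, beside 9.92% of all tested probe sets, and 0 were lower, beside 5.96% (medians 0.31 for the list and 0.02 for all). Against normal liver 3, 4 and 2 were higher at 36, 48 and 72 h, beside 2.28%, 1.64% and 1.62%. At 8 and 12 h 1 gene, Gmnn, was lower, beside 4.72% and 6.22%. Of the origin recognition complex, the platform on which the ring is loaded, 5 of 6 genes were tested. Late against early, 0 of the 5 were called in either direction, beside 15.9% of all tested probe sets. These are too few genes to tell apart from that share, and their median was -0.08. Orc2, for example, read 254 and 123.8 in normal liver and 161.2 and 231.3 at 4 h. It read 312.6 and 344.2 at 8 h, and 380.3 and 249.5 at 12 h. The late pairs were 246 and 244.6 at 36 h, 302.1 and 150.3 at 48 h, and 265.8 and 213.8 at 72 h. Its log2 differences of 0.70 at 8 h and 0.63 at 12 h did not pass the test.

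Geminin (Gmnn), the inhibitor that binds Cdt1 and keeps licensed origins from being licensed again, read 286.5 and 261.4 in normal liver, 102 and 106 at 4 h, 89.4 and 39.1 at 8 h, and 112.9 and 9.6 at 12 h. It then read 543.7 and 457.5 at 36 h, 372.8 and 550 at 48 h, and 327.8 and 357.9 at 72 h. All early arrays were below, and all late arrays above, both normal arrays. The log2 change against normal liver was -1.48 (SE 0.37, adjusted p = 0.0274) at 8 h and -1.64 (adjusted p = 0.0147) at 12 h, and at 36 h 0.75 (adjusted p = 0.314). From 12 to 36 h Gmnn rose by 2.39 (adjusted p = 0.004). The 8 h replicate of 39.1 and the 12 h replicate of 9.6, neither above the background of its array, are from low-ratio arrays. Without the low-ratio arrays the change was -1.18 at 8 h, -0.96 at 12 h and 1.82 from 12 to 36 h. That leaves a single array at each of these times, so only the sizes are given. Late against early Gmnn kept its call without them (1.63, adjusted p = 0.00284, against 1.93). With all arrays, Gmnn and Mcm10 were both lower than in normal liver at 8 and 12 h, while the Cdt1 differences, 0.55 and 0.46, lay on the other side of 0.

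Dbf4, the activator of the Cdc7 kinase that phosphorylates the ring, read 75.7 and 55.9 in normal liver, 250.5 and 235.2 at 36 h, 468.9 and 554.5 at 48 h, and 378.1 and 463.9 at 72 h. Its log2 change was 1.29 (SE 0.27, adjusted p = 0.0194), 2.21 (adjusted p = 0.000651) and 1.96 (adjusted p = 0.0018). Without the low-ratio arrays the 36 and 72 h calls were lost (adjusted p of 0.13 and 0.0558). Both tested GINS genes were higher late than early, Gins1 by 1.32 (SE 0.18, adjusted p = 0.00034) and Gins4 by 0.65 (SE 0.14, adjusted p = 0.00722). Topbp1, a scaffold for loading Cdc45 and GINS, was at least 2.89-fold higher late than early (adjusted p = 1.57e-05). Tipin, of the complex that protects the fork, was higher by 0.83 (SE 0.11, adjusted p = 0.000378). Of these late against early calls, Gins4 alone was lost without the low-ratio arrays (0.77, adjusted p = 0.0757).

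Over the 14 arrays, the 8 genes most like the mean of the centred log2 values of Mcm2 to Mcm7, among 8445 genes ranked, were Pcna (r = 0.97), Tcf19 and Hat1 (0.96), and Smc2, Rrm2, Cdk1, Psip1 and Pkmyt1 (0.95). All 8 had higher group means at 36, 48 and 72 h than at any earlier time, which follows from how they were picked on these same arrays. The mean intensity of Rrm2, a subunit of ribonucleotide reductase, was 309.6 at 12 h, 1547 at 36 h and 2718 at 48 h. Each ring subunit was compared in the same way with the mean of the other 5, which gave 0.98 for Mcm5, 0.96 for Mcm7, 0.94 for Mcm6, 0.93 for Mcm3, 0.90 for Mcm2 and 0.89 for Mcm4. Against all 6, r was 0.93 for Cdt1, 0.90 for Cdc45, 0.80 for Cdc6 and 0.30 for Mcm10. These correlations describe arrays that fall into an early and a late set, and carry no p.

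The size of a change also depended on the probe set. Of the 23 probe sets, 14 had all late arrays above all normal and early arrays. The late minus early change of Mcm7 was 2.40 on the brightest probe set and 1.02, 1.28 and 1.13 on its others, and that of Mcm6 was 3.25 on the brightest and, with no early array above background, at least 2.94-fold on the other. For Mcm3 the 5 probe sets ranged from 0.43 (SE 0.26, not called) to 1.66. For Cdt1 the second probe set gave 1.02 and the last (1455791_at), above background on 0 arrays, gave -0.09. In the naming of these arrays the endings _s_at and _x_at mark probe sets that may match more than 1 transcript, and the brightest probe sets of Mcm2, Mcm3 and Mcm7 are of this kind. The order of the ring subunits by size of change is therefore an order of probe sets.

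**Figure D4:**
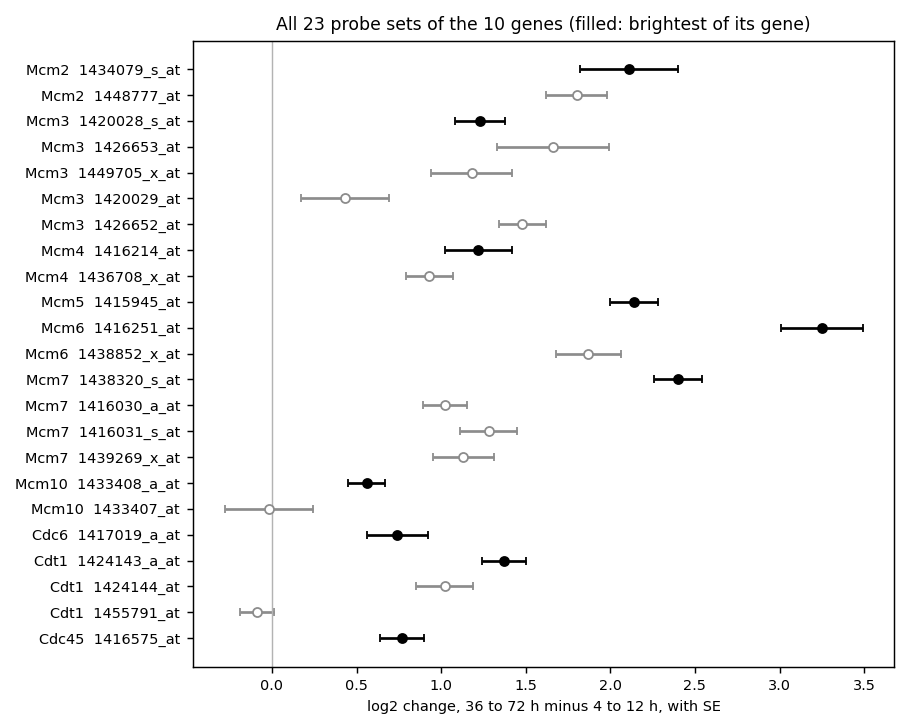
Late minus early log2 change with SE for all 23 probe sets of the 10 genes, 6 arrays against 6, from the fit without the intensity filter. Filled points are the brightest probe set of each gene. The 4 probe sets of Mcm7 range from 1.02 to 2.40, and the second Mcm10 probe set and the last Cdt1 probe set lie at 0 or just below it.

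Markers of other cells and tissues moved between the same groups. All 4 tested pancreatic acinar genes and all 4 tested skeletal muscle genes were lower late than early, beside 5.96% of all tested probe sets. The summed intensity of the acinar list was 193.9 to 284.6 in normal liver, with Cpa1 and Cela3b not above background, 593.3 to 115300 on early arrays and 280.9 to 16900 on late arrays. That of the muscle list was 111.4 to 278.7, 823.3 to 10880 and 238.3 to 1586. Among the late arrays, Cpa1 (4040) and Acta1 (901) were highest on 36 h replicate 2, a low-ratio array. Hepatocyte markers identified the tissue as liver on every array (sums of 165900 to 336300), and 1 of 6 was lower late than early. Of the Kupffer cell and macrophage list, 2 of 7 were higher, beside 9.92% of all tested probe sets. Its sums were 9348 to 10460 in normal liver, 4026 to 9784 early and 8234 to 10170 late. Against normal liver, 2 of these 7 were lower at 8 h and 3 at 12 h, beside 4.72% and 6.22%. At 36 h 1 was higher, beside 2.28%. Late against early, 0 of 2 tested genes of the lymphocyte list were called. Its sums were 405.8 to 812.5 in normal liver, 620.1 to 881.2 early and 491.9 to 1051 late, with Cd2 above background on 0 arrays. Of the neutrophil list 1 of 5 tested was lower. Its sums were 545.3 to 858 in normal liver, 1629 to 2335 early and 876.5 to 2197 late, with Camp above background on 0 arrays. Of the stellate cell list 1 of 5 tested was higher and 1 lower (sums of 2379 to 4175 early and 2410 to 4155 late). The part of any of these in the changes of the licensing genes was not tested.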

How the data were processed

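Per the labels and the design text, pooled mouse liver RNA was hybridised to 14 arrays of 1 colour. The deposited table gives a linear intensity for each probe set, already scaled between arrays. The sources used here do not name the software behind it. Of 22690 probe sets, 64 controls were left out; 20380 have 1 gene symbol, 691 several and 1555 none. Symbols of all 10 members matched RefSeq by gene ID.

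A pseudocount of 57 (the 25th percentile) was added before taking log2. Tests covered the 13576 probe sets whose mean reached the 40th percentile, 128.8. The main model, in limma 3.58.1 under R 4.3.3, had 7 groups and used all 14 arrays (7 residual and 5.08 prior degrees of freedom), with Benjamini-Hochberg adjustment within each contrast. The procedure was tested on simulated data. Where no array of one side was above background, a fold is a lower bound against background. The number of arrays limits the precision.

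All members are named; other genes come from lists of licensing, firing, timing and marker genes, and the 8 most alike by correlation. The members and lists were chosen with earlier results of these data known. Promoter letters were searched after the array values were seen. Alternatives were pseudocounts of 14.25 and 228, quantile normalization, filters at 0 and at the 60th percentile (267.8), an intensity trend, array weights, the replicate number or the low-ratio arrays as a block, the fit without the latter, only the arrays compared, each array left out, and averaged probe sets per gene.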

Additional observations from a re-analysis of the deposited data

How the results depend on the processing

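Of 43 changes of members in 26 alternative fits or fewer, 985 values kept their direction and side of the threshold, 103 lost the call, 20 gained it and 0 reversed. Of 37 further differences, none called in the main model, 20 changed sign in at least 1 alternative. Late against early kept 8 called members with each array left out. Without the low-ratio arrays, 0 members were called at 4, 12 and 72 h and from 12 to 36 h, 2 at 36 h and 5 over the course; as a block these arrays left all 11 counts within 1.5 times. With only the arrays compared, which leaves few degrees of freedom, the count was 0 at 4 and 12 h and from 12 to 36 h, 3 at 48 h and 2 at 72 h, and the F test could not be fitted. With probe sets averaged per gene, it was 0 at 4 and 12 h. With 1 array left out, counts ranged from 0 to 1 (4 h), 1 to 2 (8 h and 12 h), 4 to 6 (36 h against normal), 4 to 7 (48 h), 2 to 6 (72 h) and 3 to 8 (12 to 36 h).

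Replicate numbers are shared between groups by number only: the differences between replicates 1 and 2 correlated between groups at -0.185 to 0.527 (median 0.025), over 0.1 in 9 of 21 pairs of groups. With the replicate block, 5 members were called at 48 h in place of 7, and 8 late against early. Genes near background, Cdc6 above all, are limited by signal.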
